A study of Mus musculus with 2 samples.

Results

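The initiation and elongation factors of cytoplasmic translation were examined in the gastrocnemius, the large calf muscle, of young mice. Genes were chosen by name and not by any measured value: a protein coding gene was taken where its symbol began with Eif1 to Eif6, Eef1 or Eef2. This gave 68 genes of 55536 named genes in the deposited tables, of which 21901 have a protein coding transcript. The 68 also include enzymes and inhibitors that carry these names, such as the eIF2 kinases, the eIF4E-binding proteins and the methyltransferases of the elongation factors.

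The series holds 1 group of 2 total RNA libraries, labelled biological replicates 1 and 2. Both came from female B6CASTF1/J mice, F1 hybrids of C57BL/6J and CAST/EiJ, at 10 days of age, and were made from 300 ng of RNA with ERCC spike-ins after reduction of ribosomal RNA. No treatment, transgene or second group is labelled, and the labels do not say that each library is 1 animal. With 1 group the questions are how much of each factor the muscle expressed and how closely the libraries matched. A sign-flip test over 2 libraries cannot go below a two-sided p of 0.5, so no p is given, and the SD over 2 libraries measures only the spread between these samples, which may be technical.

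Translation of most mRNAs starts when eIF4F (the cap-binding eIF4E, the scaffold eIF4G and the helicase eIF4A) recruits the mRNA to a small ribosomal subunit that carries eIF1, eIF1A, eIF3, eIF5 and initiator tRNA bound to eIF2. In elongation, eEF1A delivers aminoacyl-tRNA, the eEF1B complex reloads eEF1A with GTP, and eEF2 moves the ribosome by a codon. The mouse has 2 eEF1A genes: Eef1a1 is expressed almost everywhere, and Eef1a2 is known as the form of muscle, heart and neurons, where it takes over from Eef1a1 after birth.

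The named genes held 35666448 expected counts in replicate 1 and 39650328 in replicate 2, and the 68 factor genes held 319051 and 359464 of these. All 8 markers of skeletal muscle fibres were detected in both libraries, and their summed level was a TPM of 69890 in replicate 1 and 81565 in replicate 2. The libraries did not hold the same tissue mixture. The 8 markers of bone and cartilage summed to a TPM of 321.9 in replicate 1 and 14.1 in replicate 2, where Ibsp and Bglap were listed at 0, and the 7 marrow granulocyte markers to 56.1 and 0.74. Col2a1 of the bone and cartilage list moved little, at 14.7 and 11.5. The 6 fibroblast markers summed to 7462 and 4566, the 4 endothelial markers to 161 and 142, the 4 macrophage markers to 43.4 and 32.1, and the 4 erythroid markers to 1259 and 969. Most of the fibroblast fall lay in Col1a1 (3542 and 1887) and Col1a2 (1983 and 1123), while Dcn had 255 and 230. The 5 neuronal markers summed to 4.71 and 1.74, with Chat at 0 in both. In bulk tissue, fewer cells of a type and less RNA per cell cannot be told apart.

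The eEF1A genes are shown because they were the most abundant members and are close paralogs. The stretches below are the 90 coding bases from the start codon, 5′ to 3′, of the full-length transcripts in GENCODE M21, with the bases at which the genes differ in capitals.
Eef1a1-201: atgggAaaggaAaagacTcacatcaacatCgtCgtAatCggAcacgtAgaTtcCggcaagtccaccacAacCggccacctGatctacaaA
Eef1a2-201: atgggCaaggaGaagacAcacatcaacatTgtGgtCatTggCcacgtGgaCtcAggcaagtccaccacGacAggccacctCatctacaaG
All 15 differences in this stretch lie at the third position of a codon. Over the whole coding sequence 79.9% of aligned bases are identical and the longest identical run is 23 bases, and the genes share no run of 50 bases. Eef1a1 does share sequence with other loci: 52.4% of the 50-base runs in its transcripts also occur in another of 20 genes, 18 of them pseudogenes, while none of the Eef1a2 runs do.

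The promoters of the genes, given as the 300 bases from 250 before to 50 after the RefSeq start on GRCm38.p6, are shown because the genes differ in tissue range. Both lie on the minus strand, Eef1a1 at chr9:78481675-78481974 and Eef1a2 at chr2:181156966-181157265. Capitals mark the motifs searched on both strands, which were TATATAA (the core of a TATA box), GGGCGG (an Sp1 box, written CCGCCC when it lies on the other strand) and the E-box CAGCTG.
Eef1a1: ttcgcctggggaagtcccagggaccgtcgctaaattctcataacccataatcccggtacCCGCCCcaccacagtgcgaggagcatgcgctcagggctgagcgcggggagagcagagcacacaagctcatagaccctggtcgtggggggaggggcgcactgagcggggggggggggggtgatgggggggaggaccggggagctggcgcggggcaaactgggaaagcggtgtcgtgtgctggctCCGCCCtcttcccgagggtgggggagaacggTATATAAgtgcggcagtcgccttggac
Eef1a2: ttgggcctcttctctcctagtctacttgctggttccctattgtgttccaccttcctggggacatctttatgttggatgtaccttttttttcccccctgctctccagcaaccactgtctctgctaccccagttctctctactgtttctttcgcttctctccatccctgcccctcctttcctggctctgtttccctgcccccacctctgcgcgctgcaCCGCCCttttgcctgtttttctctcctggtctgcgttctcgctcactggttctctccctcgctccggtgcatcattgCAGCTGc
The Eef1a1 window holds TATATAA at base 274, 23 bases after the annotated start, and CCGCCC at bases 60 and 243. The Eef1a2 window holds CCGCCC at base 217 and CAGCTG at base 294. TATATAA occurs in 1.64% of the 9041 detected protein coding genes in the RefSeq promoter table and in 3.84% of all 27025 genes there. It occurs in 3 of the 52 factor genes found there (Eef1a1, Eif1 and Eif2s3y). The 52 are not limited to detected genes, and Eif2s3y was below detection. GGGCGG occurs in 70.8% of those detected genes and in 39 of the 52 factor genes, a share near that background. CAGCTG occurs in 18.3% and in 6 of the 52. A match is a description of the letters and not a bound site.

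The elongation factors were the most abundant members, led by both eEF1A genes. Eef1a1 (ENSMUSG00000037742.14, mm10 chromosome 9, 78478449 to 78489151, minus strand) had a TPM of 1391 in replicate 1 and 1147 in replicate 2. Eef1a2 (ENSMUSG00000016349.10, chromosome 2, 181147653 to 181157014, minus strand) had a TPM of 663 and 845. Eef1a1 was thus the higher of the pair in both libraries, and the pair lay closer together in replicate 2. By mean TPM they ranked 29 and 44 among 21888 nuclear protein coding genes.

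Within each library, Eef1a1 made up 67.7% of the eEF1A TPM in replicate 1 and 57.6% in replicate 2, a mean of 62.7% ± 7.16 (SD, n = 2). The log2 ratio of Eef1a1 over Eef1a2 was 1.07 and 0.44, a mean of 0.75 ± 0.44. The summed eEF1A level moved less than its parts, from a TPM of 2054 in replicate 1 to 1992 in replicate 2. The same calculation on the kallisto-format TPM gave 1.27 and 0.67.

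The size of the balance depended on which transcripts were counted and how. Eef1a2 has a single annotated transcript, Eef1a2-201 of 2084 nucleotides. Eef1a1 has 8, and its full-length form Eef1a1-201 of 1794 nucleotides held 75.4% and 72.4% of the gene's TPM, while the short coding form Eef1a1-208 of 745 nucleotides held 13.6% and 5.88%. In the kallisto-format tables Eef1a1-208 held 44.5% and 45.4%. With the full-length transcripts alone, the log2 ratio was 0.66 in replicate 1 and −0.02 in replicate 2 in the RSEM-format tables, and 0.39 and −0.25 in the kallisto-format tables. Expected counts, which are not divided by length, gave 0.61 and −0.06. Replicate 1 therefore had more Eef1a1 than Eef1a2 by each of these measures, and replicate 2 did so by gene TPM and not by full-length transcripts or counts.

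Pseudogenes added little to the balance. The 18 pseudogenes that share 50-base runs with Eef1a1 held 1905 and 1829 expected counts, 3.37% and 3.53% of those of Eef1a1, and 5 of the 18 reached 10 counts in either library. Adding them to Eef1a1 moved the mean log2 ratio from 0.75 to 0.81.

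**Figure D1:**
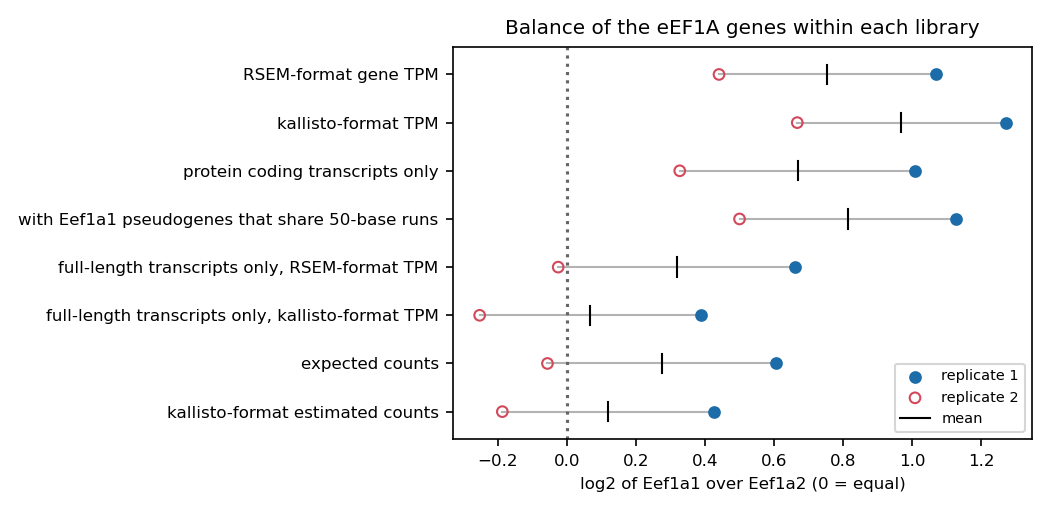
The log2 ratio of Eef1a1 over Eef1a2 within each library (x axis; 0 means equal levels) by 8 measures (y axis); filled points are replicate 1, open points replicate 2 and black bars their mean. Replicate 1 lies at 0.39 or above throughout, while replicate 2 lies between −0.25 and 0.67 and crosses 0 for full-length transcripts and for counts.

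The libraries differed in both eEF1A genes, and the scaling decides which one carries the difference. After TMM scaling, the log2 difference between libraries (replicate 2 minus replicate 1) was 0.63 for Eef1a2 (37118 and 53801 counts) and −0.04 for Eef1a1 (56486 and 51767 counts). Scaled to spike-ins instead, the differences were 0.23 and −0.43, so the distance between the genes was 0.66 by either scaling. The 8 muscle fibre markers were all higher in replicate 2 after TMM scaling, with a median log2 difference of 0.50, and 5 of 8 were with spike-in scaling. The fibroblast markers had a median of −0.08 with 1 of 6 higher. Of these, Col1a1 (−0.63) and Col1a2 (−0.59) were lowest, while Col3a1, Dcn, Pdgfra and Lum lay between −0.09 and 0.13. The bone and cartilage markers were all lower, with Col2a1 at −0.05. The part of this mixture in the eEF1A balance was not tested.

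The remaining elongation factors followed in a steep order. Eef2, the translocase (chromosome 10, 81176631 to 81182498, plus strand), had a TPM of 451 in replicate 1 and 430 in replicate 2, so eEF1A transcripts exceeded Eef2 by 4.56-fold and 4.63-fold. Of the eEF1B exchange complex, Eef1g, its scaffold subunit, had a TPM of 284 and 290. Eef1b2, a catalytic exchange subunit, had 272 and 229. Eef1d, the other exchange subunit, had 122.6 and 127.8. These 4 genes did not overlap in their RSEM-format values, while by kallisto-format TPM Eef1b2 (454 and 481) overlapped Eef1g (474 and 451). Eef1e1, which in mammals sits in the multi-tRNA synthetase complex, was far lower at 7.76 and 9.57. Together the 7 elongation factors held 50.9% ± 0.531 (SD, n = 2) of the TPM of all 68 genes.

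The enzymes that modify or restrain elongation factors were scarce by comparison. Eef2k, the kinase that inactivates eEF2, had a TPM of 24.9 in replicate 1 and 19.6 in replicate 2, so Eef2 exceeded it 18.1-fold in replicate 1 and 22.0-fold in replicate 2. The lysine methyltransferase genes Eef1akmt1 (12.1 and 14.9), Eef1akmt2 (5.37 and 5.06), Eef1akmt4 (2.51 and 2.64) and Eef2kmt (5.93 and 4.41) were detected. Eef1akmt3 was not, with a TPM of 0.37 and 0.26 from 27 and 22 counts. The 6 enzymes summed to 49.1 ± 3.07.

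Across all members, 65 of 68 reached a TPM of 1 in both libraries (95.6%), against 52.6% of protein coding genes. The median member had a TPM of 37.0, against 9.38 for detected protein coding genes, and 11 members reached 100 in both libraries. The lowest of these 11 by mean TPM, Eef1d, ranked 454 among 21888 nuclear protein coding genes. All 68 summed to 6227 and 6096, or 0.624% ± 0.00897 of the gene TPM. The 10 highest members were the same genes in both libraries, and 32 of 67 neighbours in the order of mean TPM had values that did not overlap between the libraries. Neighbours were not counted this way for other genes, so the 32 describe these members only.

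The members under detection were Eef1akmt3, Eif4e1b and Eif2s3y. Eif4e1b, a cap-binding protein known from oocytes, had 0 counts in both libraries, a floor of 0.0841 and 0.0757 CPM if 3 counts are taken as the limit, for counting error only. Eif2s3y lies on the Y chromosome and had 1 count in each of these female libraries.

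**Figure D2:**
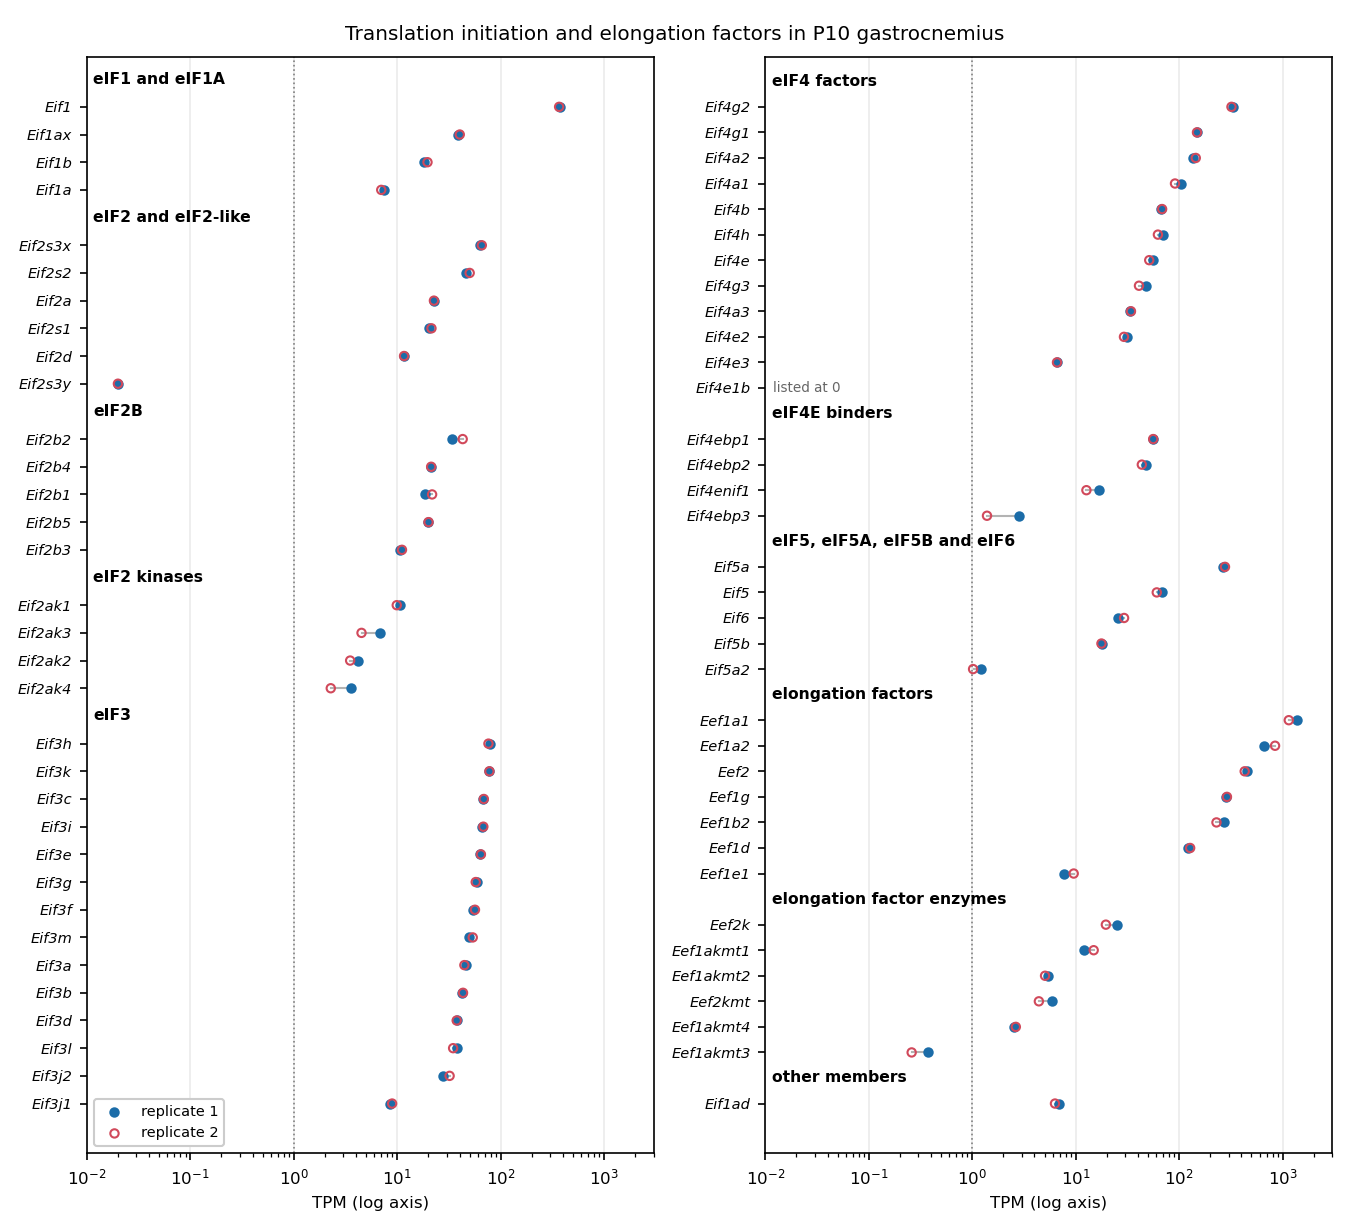
TPM (x axis, log scale) of the 68 genes by role group (y axis); filled points are replicate 1, open points replicate 2, the dotted line is a TPM of 1. Eef1a1 and Eef1a2 stand highest, the eIF3 subunits form a narrow band, and Eif2s3y and Eef1akmt3 lie left of the line while Eif4e1b is listed at 0.

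Eif1 led the factors that set the start codon. Eif1, which guards start codon selection (chromosome 11, 100319885 to 100322096, plus strand), had a TPM of 372 in replicate 1 and 367 in replicate 2. Its paralog Eif1b had 18.2 and 19.6, which is 20.4-fold and 18.7-fold lower. Over protein coding transcripts alone Eif1 had a TPM of 127 and 130, against 18.2 and 19.6 for Eif1b. For eIF1A, which works with eIF1 in scanning, Eif1ax on the X chromosome had 38.5 and 40.2 and Eif1a had 7.44 and 7.01. Neither pair overlapped between libraries. The protein coding transcript of Eif1ax had 15.4 and 16.3, and its kallisto-format TPM was 21.3 and 21.1.

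The eIF2 subunits were uneven. eIF2 carries the initiator tRNA, and its alpha subunit is the target of the stress kinases. Eif2s1, the alpha subunit, had a TPM of 20.3 in replicate 1 and 21.4 in replicate 2. Eif2s2, the beta subunit, had 46.7 and 50.2. Eif2s3x, the gamma subunit on the X chromosome, had 63.1 and 65.7. The gamma subunit was thus 3.10-fold and 3.07-fold above alpha, by kallisto-format TPM 5.29-fold and 5.10-fold, and over protein coding transcripts 4.63-fold and 5.42-fold. Of the eIF2-like factors, Eif2a had 22.4 and 22.6 and Eif2d 11.7 in both.

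The gamma subunit has a copy on each sex chromosome, so its sequence tells how far reads of the 2 copies can be kept apart. The stretches are the 90 coding bases from the start codon, 5′ to 3′, in GENCODE M21, on chromosome X (minus strand) and Y (plus strand), with differing bases in capitals.
Eif2s3x-201: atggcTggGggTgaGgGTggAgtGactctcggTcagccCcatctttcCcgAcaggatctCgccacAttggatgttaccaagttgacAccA
Eif2s3y-201: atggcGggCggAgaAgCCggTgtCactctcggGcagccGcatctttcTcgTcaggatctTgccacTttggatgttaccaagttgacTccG
They differ at 16 bases, 15 of them at the third position of a codon, and the whole coding sequences are 86.3% identical. Eif2s3x had 5069 and 6343 counts against 1 and 1 for Eif2s3y. A processed pseudogene, Gm2223, holds 35.4% of the 50-base runs of Eif2s3x and had 174 and 284 counts.

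eIF2B, the exchange factor that recycles eIF2, summed to a TPM of 111 ± 9.12 over 5 subunits. Eif2b2 had 33.7 and 42.9, Eif2b3 10.7 and 11.1, and Eif2b4, Eif2b1 and Eif2b5 lay between 18.7 and 21.7. Eif2b3 was the lowest in both formats and by counts, while the highest subunit depended on the measure. It was Eif2b2 by RSEM-format TPM, Eif2b1 by kallisto-format TPM (52.6 and 56.3) and Eif2b5 by counts (1200 and 1456). The retained intron form Eif2b2-206 of 338 nucleotides held 27.5% and 35.9% of the TPM of Eif2b2. Its kallisto-format TPM was 0 in both libraries.

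The 4 eIF2 kinases were low, at a summed TPM of 25.2 in replicate 1 and 20.2 in replicate 2. Eif2ak1 (HRI, the haem-regulated kinase) had 10.5 and 9.90, Eif2ak3 (PERK, of the endoplasmic reticulum) 6.80 and 4.52, Eif2ak2 (PKR, activated by double-stranded RNA) 4.22 and 3.51, and Eif2ak4 (GCN2, activated by uncharged tRNA) 3.60 and 2.28. The level of Eif2s1 was 0.808-fold and 1.06-fold that of the 4 kinases together, and 0.497-fold and 0.540-fold over protein coding transcripts.

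eIF3, the largest initiation complex, was even. Apart from the loosely bound eIF3j, its 12 subunits had mean TPM values from 36.4 (Eif3l) to 77.6 (Eif3h), a 2.13-fold range, with a coefficient of variation of 25.1% in replicate 1 and 25.6% in replicate 2. The highest were Eif3h (79.1 and 76.2), Eif3k (76.9 and 77.8) and Eif3c (67.7 and 68.7). Their order at the top is not resolved, since Eif3h and Eif3k overlapped. The eIF2 subunits of a female spanned 3.08-fold and eIF2B 3.51-fold, and no test of these ranges was made.

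The eIF3j genes share most of their coding sequence. Eif3j2 had a TPM of 27.7 and 32.1 and Eif3j1 8.61 and 8.93, but 90.8% of the 50-base runs of Eif3j2 occur in Eif3j1 and their coding sequences are 99.2% identical. In the longer Eif3j1 transcripts, 39.8% of runs occur in another gene and the rest are its own. Their 1781 and 1232 counts in replicate 1 and 2347 and 1464 in replicate 2 were divided by the authors' model, so the split is uncertain.

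The eIF4 factors, which bring the mRNA to the ribosome, held 16.4% ± 0.0968 of the members' TPM. Eif4g2, a shortened eIF4G relative that lacks the eIF4E-binding part (chromosome 7, 111067750 to 111083030, minus strand), was the highest at 328 in replicate 1 and 320 in replicate 2. Eif4g1, the main scaffold, had 148 and 149, and its paralog Eif4g3 47.7 and 40.9. Eif4e, the cap-binding subunit, had 55.4 and 51.4. The scaffolds Eif4g1 and Eif4g3 together were therefore 3.53-fold and 3.69-fold above Eif4e. The related cap binders were lower, with Eif4e2 at 31.4 and 29.3 and Eif4e3 at 6.54 and 6.60. The helicase cofactors Eif4b (67.3 and 68.4) and Eif4h (70.6 and 62.3) lay together.

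The order of the eIF4A helicase genes was not settled by these tables. Eif4a2 had a TPM of 137 and 145 and Eif4a1 of 103 and 91.2, so Eif4a2 was the higher in the RSEM-format tables. Over protein coding transcripts the order turned, with Eif4a1 at 85.1 and 82.4 and Eif4a2 at 48.6 and 60.8. In the kallisto-format tables Eif4a1 had 333 and 279 and Eif4a2 228 and 305, so the order was opposite in replicate 1. Of the 50-base runs of Eif4a1, 65.3% occur in 8 pseudogenes, which held 912 and 1138 counts. Eif4a3, the helicase of the exon junction complex, had 33.4 and 34.2.

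The eIF4E-binding proteins block assembly of eIF4F when they are not phosphorylated. Eif4ebp1 had a TPM of 56.0 in replicate 1 and 56.1 in replicate 2, and Eif4ebp2 48.0 and 43.6. Their order turned with the unit, since Eif4ebp2 had 6442 and 6600 counts against 1627 and 1865 for Eif4ebp1, whose transcripts are shorter, and the protein coding form of Eif4ebp1 had a TPM of 15.5 and 15.8. Eif4ebp3 was low at 2.85 and 1.39, from 51.9 and 28.7 counts, and 65.5% of its 50-base runs lie in the gene AC115631.1. The 3 binding protein genes summed to 1.93-fold and 1.97-fold the level of Eif4e, to 1.57-fold and 1.65-fold by kallisto-format TPM, and to 1.20-fold and 1.18-fold over protein coding transcripts. Eif4enif1, which carries eIF4E into the nucleus, had 16.9 and 12.7.

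The factors of subunit joining and of eIF5A were dominated by Eif5a. It encodes the hypusine-bearing factor that helps stalled ribosomes, and had a TPM of 266 and 277. Eif5a2, its paralog, had 1.22 and 1.02, a 218-fold and 272-fold lower level and close to the detection limit. Eif5, the GTPase activator for eIF2, had 68.2 and 60.8. Eif5b, which joins the ribosomal subunits, had 18.1 and 17.7, and Eif6, which keeps them apart, 25.7 and 29.4. Eif1ad, an eIF1A-like gene outside these groups, had 6.90 and 6.31.

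Members lay 1.5-fold or more apart between the libraries about as often as protein coding genes did. Of the 11760 genes whose counts averaged 100 or more, 4.45% lay that far apart after TMM scaling. Of the protein coding ones 3.32% did, and of the 63 members at that count 2 did (3.17%). Both were higher in replicate 2, as 1.88% of genes were, and no member was that much lower, as 2.57% of genes were: Eef1a2 at 1.54-fold and Eef1e1 at 1.59-fold (275 and 411 counts). Neither passed with library totals, where their log2 differences were 0.38 and 0.43, or with spike-ins, at 0.23 and 0.28. With 1 library a side this describes these libraries and has no replicate check.

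Most members shifted slightly the same way. After TMM scaling, 57 were higher in replicate 2 and 6 lower, with a median log2 difference of 0.28 (quartiles 0.14 and 0.35), against a median of 0.08 (quartiles −0.09 and 0.25) for protein coding genes, of which 63.0% were higher. Scaling to library totals moves every difference by −0.24 and leaves 37 higher and 26 lower, and scaling to spike-ins moves it by −0.39 and leaves 8 higher and 55 lower. The direction is therefore set by the scaling, and the distance of 0.20 from the coding median is not. Whether muscle fibre marker RNA, which was also higher in replicate 2 after TMM scaling, has a part in this was not tested. The share of protein coding genes that were higher was counted with TMM scaling alone, so the counts under the other scalings have no background.

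Groups differed in where they lay. Their counts are to be read beside the 63.0% of protein coding genes that were higher in replicate 2 with TMM scaling. That share was not counted with library totals or spike-ins. All 5 eIF2B subunits were higher in replicate 2 with TMM scaling (0.28 to 0.50) and with library totals, and 3 of 5 with spike-ins. All 14 eIF3 genes were higher with TMM (0.19 to 0.49), 12 with library totals and 1 with spike-ins. Of the 4 eIF2 kinases, 1 was higher with TMM and with library totals and none with spike-ins, and Eif2ak4 was the lowest of the 63 members at −0.25. It passed the 1.5-fold limit with spike-in scaling, at −0.65.

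**Figure D3:**
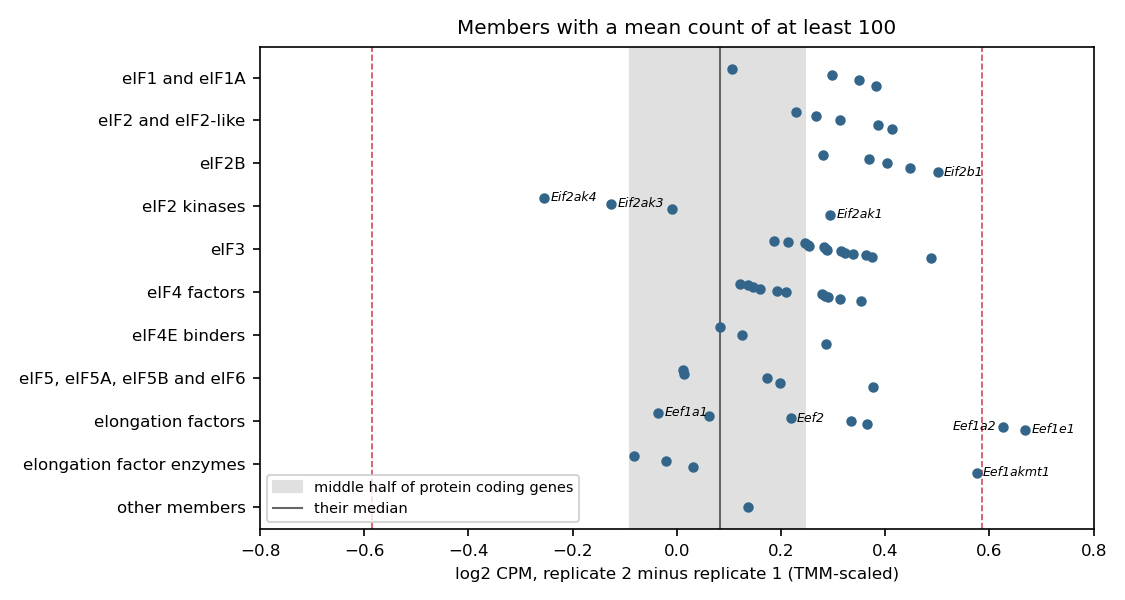
Log2 difference of each of 63 members between the libraries after TMM scaling (x axis, replicate 2 minus replicate 1) by role group (y axis); the grey band and line are the quartiles and median of protein coding genes and the dashed lines the 1.5-fold limit. Eef1a2 and Eef1e1 lie past the upper limit, while Eif2ak4 lies lowest at −0.25.

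Protein coding transcripts held most of the members' expression. Over the 413 annotated transcripts of the 65 detected members they made up 86.2% ± 0.228 of TPM and 95.2% ± 0.320 of counts, and 81.5% ± 1.33 in the kallisto-format tables. Processed transcripts without a reading frame held 7.32% of TPM, retained introns 3.52% and nonsense-mediated decay forms, which carry an early stop codon, 2.97%. Of the 65 detected members, 41 had at least 90% of their TPM in coding forms and 7 had under 50%. These counts, and those of leading forms below, were not made over other protein coding genes. They describe the members and do not set them apart from other genes.

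In 4 members the leading form by TPM was not protein coding in both libraries. Eif4a2 was led by the decay form Eif4a2-210 of 1737 nucleotides, with 31.1% and 34.1% of its TPM and also 36.3% and 39.9% of its counts. In the kallisto-format tables this form had a TPM of 0.025 in replicate 1 and 42.0 in replicate 2, so the formats divide the 25 transcripts of Eif4a2 differently. The other 3 were led by short forms. The processed transcript Eif1-202 of 383 nucleotides held 55.5% and 53.2% of the TPM of Eif1 but 26.1% and 24.3% of its counts. The retained intron form Eif1ax-202 of 416 nucleotides held 59.9% and 59.6% of TPM but 8.55% and 8.44% of counts. By kallisto-format TPM it held 1.76% and 0%, and the coding form led. The processed transcript Eif4ebp1-202 of 798 nucleotides held 72.4% and 71.9% of TPM and 49.1% and 48.5% of counts. A short form needs few reads for a high TPM, so by counts Eif4a2 was the single member led by a non-coding form in both libraries. By kallisto-format TPM the members so led were Eif1, Eif4ebp1, Eef1b2 and Eif5b.

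The leading form differed between the libraries in Eef2k, Eif1a, Eif2s1 and Eif5. For Eif2s1 the coding form Eif2s1-201 led in replicate 1 with 51.7% of TPM and the processed form Eif2s1-203 of 433 nucleotides in replicate 2 with 52.3%, while by counts the coding form held 90.1% and 89.3%. By kallisto-format TPM the coding form held 96.2% and 83.3%. For Eif5 the lead passed from the coding form Eif5-202 to the retained intron form Eif5-210, at 27.8% and 24.6%, and by counts Eif5-202 led in both. Eif5-202 also led in both by kallisto-format TPM, where Eif5-210 was at 0.

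**Figure D4:**
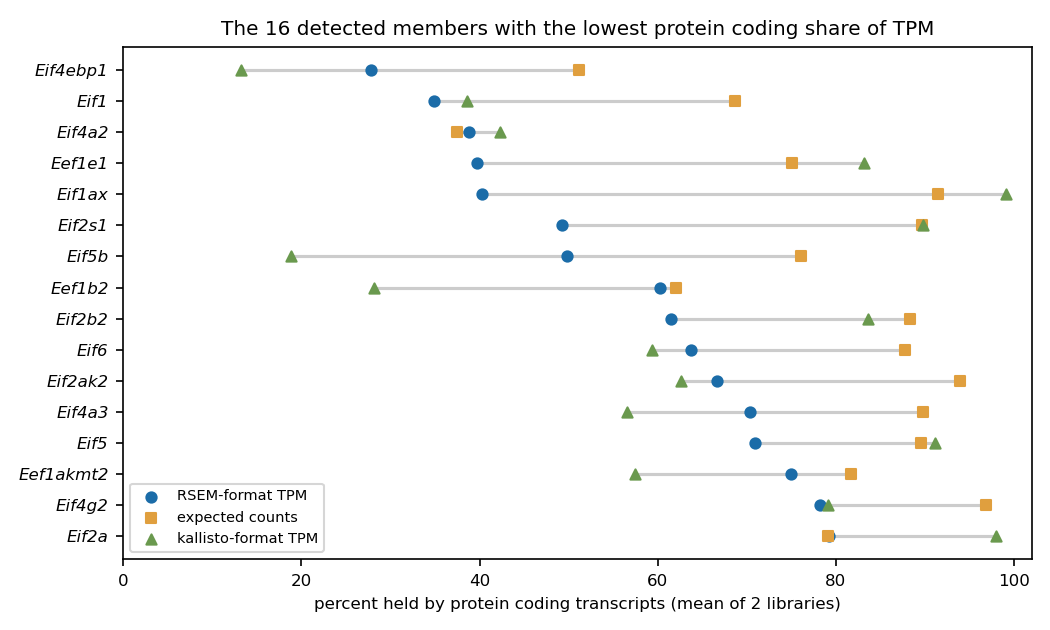
Percent of each gene held by protein coding transcripts (x axis, mean of 2 libraries) for the 16 detected members with the lowest share of TPM (y axis), by RSEM-format TPM, expected counts and kallisto-format TPM. Counts give the higher share than TPM for most, and Eif4a2 stays under 50% by all 3 measures.

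The formats were also compared gene by gene. RSEM-format TPM was lower than kallisto-format TPM by a median log2 of −0.57 and −0.50 over protein coding genes. At least 2-fold lower in both libraries were 4 of 65 members, Eif4a1, Eif2b1, Eif5b and Eif4ebp3, against 6.58% of protein coding genes. Relative to those medians, Eif4a1 remained 2-fold below, and Eif1ax and Eef1e1 lay 2-fold above, against 1.61% and 0.681% of genes. Among the 68 members, 30 shared no 50-base run with another gene and 14 shared at least 20%.

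The genes that act beside these factors were nearly all expressed, with 44 of 47 listed partners at a TPM of 1 in both libraries, a share to be read beside the 52.6% of all protein coding genes. The poly(A)-binding proteins Pabpc1 (175 and 158) and Pabpc4 (123.4 and 137.4) were the highest of them. The release factors Gspt1 (32.7 and 32.1) and Etf1 (29.0 and 31.2) had similar levels. Of the enzymes that make diphthamide on eEF2 and hypusine on eIF5A, Dph3 (30.3 and 34.8) and Dohh (17.8 and 18.3) led. The reinitiation factors Denr and Mcts1 had 27.0 and 28.8, and 23.3 and 21.8. Of the stress pathway, Atf4, the transcription factor translated when eIF2 is phosphorylated, had 58.0 and 51.2, and the phosphatase partner Nck1 17.6 and 17.5. In the mitochondrial system, the elongation factors Tufm (43.9 and 53.2) and Gfm1 (29.4 and 34.1) led. All 9 genes were higher in replicate 2 after TMM scaling, as 63.0% of protein coding genes were. With spike-ins 6 were higher, a scaling for which the share of protein coding genes was not counted.

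Of the 44 partners at that depth, 3 lay 1.5-fold or more apart between the libraries after TMM scaling (6.82%), against 4.45% of all genes and 3.32% of protein coding genes. Chac1, a glutathione-degrading target of the stress response, had 134 and 394 counts, a log2 difference of 1.64. Mtrf1, a mitochondrial release factor, had 101 and 163 (0.78), and Dph7, a diphthamide enzyme, 148 and 90 (−0.62). Of the other stress targets, Asns was at −0.39, Ddit3 at −0.16, Sesn2 at −0.02 and Atf4 at 0.09. Trib3 was at 0.71, from 22 and 34 counts, which is under that depth. Gspt2, Trib3 and Sesn2 were below the detection limit in at least 1 library.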

How the data were processed

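Total RNA of 2 gastrocnemius libraries was quantified against mm10 with GENCODE M21, per the text files deposited with the tables; the tools and versions are not given in the sources used, and tables are named by their columns (RSEM-format and kallisto-format). Deposited expected counts and estimated counts divide reads that match several transcripts by a model, per the file headers. Deposited TPM is per effective length, scaled to a fixed total per library that includes the spike-ins, and a gene's TPM is the sum over its transcripts. The deposited percent column gives each transcript's part of its gene. Deposited scores that bound a credibility interval of TPM were not used in the text. Stranded libraries were prepared, per the labels.

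Rows that name no gene held 1.38e-05% and 5.00e-06% of counts and were left out, and spike-ins (0.720% and 0.798%) were used for scaling alone. Kallisto-format values were summed per gene. Detection was a TPM of 1 in both libraries. Differences between libraries were log2 CPM from expected counts, rounded to whole numbers, with TMM scaling and a prior count of 0.5 in edgeR 4.0.16 (R 4.3.3), over genes with a mean count of 100. Scalings by DESeq2 1.42.0, library totals and spike-ins, other limits, the other table format and each library alone were alternatives. The comparison of replicate 2 with replicate 1 was tested on simulated data over 11760 genes, where 91% of 200 genes changed 2-fold passed the 1.5-fold limit in the right direction and 7.15% of unchanged genes passed it. The simulation gave every gene the same assumed spread, which was not fitted to these libraries, where 4.45% of genes passed. Its rates therefore check the calculation and do not give the error of the real comparison. The libraries differed by more than counting noise. Shared sequence was counted as 50-base runs over all annotated transcripts. Motifs were searched in RefSeq promoter windows of GRCm38.p6. Python 3.11.15, numpy 2.4.6 and pandas 2.3.3 were used. Genes named in the text are all elongation factors, the 3 highest and the lowest of each role group, paralog pairs, genes under detection, genes apart between libraries or formats, genes led by a non-coding form or by different forms, and of partner lists the highest 2 with those apart between libraries; other genes named were chosen after their values were seen. The members and lists were chosen with earlier results of these data known.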

Additional observations from a re-analysis of the deposited data

How the results depend on the processing

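Of 155 values under other settings, 96 stayed within the spread of the libraries or within 1.5 times the count, 55 moved and 4 reversed. The 96 include balances, ratios and shares of single libraries, which had to stay. With 2 libraries, each lies within their SD of the mean by arithmetic. The 96 are therefore not a measure of stability. The Eef1a1 over Eef1a2 log2 ratio of 0.75 fell to 0.28 with expected counts, 0.12 with kallisto-format estimated counts and 0.0686 with full-length kallisto-format transcripts, and ranged from 0.44 to 1.07 over single libraries. Eif4a1 over Eif4a2, at −0.53, became 0.21 in the kallisto-format tables and 0.62 over protein coding transcripts, and Eif4ebp1 over Eif4ebp2, at 0.29, became −1.90 with counts and −1.55 over protein coding transcripts. Members at least 1.5-fold apart between libraries numbered 2, and 0 with library totals, 1 with spike-ins, 4 with kallisto-format counts and 0 at a 2-fold limit. The elongation factors' share of the members was 49.4% by kallisto-format TPM and 47.3% by counts, against 50.5 to 51.2 over single libraries. The members' share of all genes was 0.985% and 0.901%, against 0.618 to 0.630 over single libraries. Members led by a non-coding form numbered 1 by counts and 4 to 6 over single libraries, and members apart between formats 4, or 6 in either library alone. Detected members numbered 65 in either library alone and by kallisto-format TPM. They numbered 58 at a TPM of 5, and 66 at a TPM of 0.1 or an expected count of 10. Pairs with the first gene higher numbered 11 by TPM in either format or library, and 9 by expected counts. Over protein coding transcripts they also numbered 11, but Eif4a1 over Eif4a2 joined and Eif4ebp1 over Eif4ebp2 dropped out. Detected partners numbered 44 to 45. Where a cause is not given by the setting itself, the cause was not tested. Settings for full-length transcripts, kallisto-format counts of the pair, pseudogenes with shared runs, ratios and pairs over protein coding transcripts, ratios by kallisto-format TPM or in single libraries, median-centred formats, and leading forms, shares and partners by the other format or by counts were chosen after seeing the data. No paired analysis was possible because the series has 1 group. Depth limits the 5 members with mean counts under 100 (Eif4ebp3, Eef1akmt3, Eef1akmt4, Eif2s3y and Eif4e1b).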
